A study of Mus musculus with 4 samples.

Results

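Splicing factor and hnRNP genes were taken as the protein-coding genes of the mouse RefSeq annotation (GRCm38.p6, mm10) whose symbols start with Srsf, Snrp, Hnrnp, Sf3a, Sf3b, U2af or Prpf. The rule used names alone and found 69 of the 21887 protein-coding genes on the autosomes and sex chromosomes. Of the 69, 11 encode SR proteins, 8 Sm core proteins, 2 U1 snRNP proteins, 11 U2 snRNP proteins, 3 U2AF proteins, 13 Prpf proteins and 20 hnRNP proteins. The remaining entry, Hnrnpa1l2-ps2, is called protein-coding by the table although its symbol names a pseudogene.

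The study mapped where the transcription factor Runx3 sits on the genome of wild type splenic CD8 T cells. The cells were taken from adult mice with magnetic beads against CD8a. Chromatin immunoprecipitation (ChIP) started from 50000000 frozen cells pooled from 5 mice. CUT&RUN, in which an antibody brings a nuclease to its target in intact cells, used 150000 fresh cells from 1 mouse. The same rabbit serum against Runx3, at a dilution of 1 in 200, served in both, and every library had 12 PCR cycles. A whole cell extract library was the control of the ChIP peak list, and a CUT&RUN library with normal rabbit serum in place of the anti-Runx3 serum was not analysed here. The labels name no strain. There was 1 library per assay, so no value below has a replicate check, no test between the assays was possible, and the assay, the number of cells, freezing and the mice cannot be told apart.

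Splicing removes introns from precursor messenger RNA and is carried out by the spliceosome, which is built from small nuclear ribonucleoproteins (snRNPs). Each spliceosomal snRNP holds an RNA and proteins: Sm proteins form a ring on the U1, U2, U4 and U5 RNAs, and U2AF guides the U2 snRNP to the branch point. SR proteins mostly favour the use of an exon, and heterogeneous nuclear ribonucleoproteins (hnRNPs) often repress it. In T cells such regulators set the exon choice of Ptprc (CD45). Runx3 is a RUNX family factor that is known for its role in the CD8 lineage, and RUNX proteins bind DNA at a short core sequence that includes TGTGGT.

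The ChIP list held 13166 peaks from 9532996 fragments that were left after 80.3% were removed as duplicates, and the CUT&RUN list held 15891 peaks from 14068364 fragments after 21.4% were removed. Within each list a peak's height is its pileup, the number of fragments over the summit, and peaks were ranked from 1 (strongest) by q and then by pileup. The median pileup was 12 fragments in the ChIP list and 25 in the CUT&RUN list, and 66.2% of ChIP peaks and 58.8% of CUT&RUN peaks overlapped a peak of the other list. All 8 T cell identity genes examined (Cd3d, Cd3e, Cd3g, Cd8a, Cd8b1, Cd2, Cd5 and Ptprc) had a summit within their span plus 10 kb in both lists. The same held for 0 of 3 macrophage genes (Csf1r, Lyz2 and Adgre1), against 34.9% of all protein-coding genes. Occupancy is no measure of the cells' makeup, so the purity of the cells was not tested.

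Most splicing factor and hnRNP genes carried a Runx3 peak at a gene end. In ChIP, 49 of the 69 genes (71.0%, exact 95% Clopper-Pearson interval 58.8 to 81.3%) had a summit within 1 kb of a gene end, against 23.0% of all protein-coding genes. In CUT&RUN, 50 of the 69 (72.5%, interval 60.4 to 82.5%) did, against 27.2% of all protein-coding genes. Both lists placed a summit there at 41 genes (59.4%, interval 46.9 to 71.1%), against 18.3% of all protein-coding genes, and at least 1 list did at 58 (84.1%), against 31.8%. Each of the 3 intervals given lies above its background share. Intervals here and below cover counting error only, and fragments copied by PCR are not independent molecules. CUT&RUN was called with no control, so how specific its peaks are to Runx3 was not tested.

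The picture was similar in a wider window. Within the gene span plus 10 kb on each side, 57 genes had a ChIP summit (82.6%, against 40.2% of all protein-coding genes) and 59 had a CUT&RUN summit (85.5%, against 45.1%). A summit of both lists lay there in 54 genes (78.3%, against 34.9%), and a summit of at least 1 list in 62 (89.9%, against 50.5%). In all, 98 ChIP peaks and 102 CUT&RUN peaks lay in these windows, and none was counted for 2 of the genes. Of the ChIP peaks, 61 were within 1 kb of a gene end and 50 had their summit inside the gene. Of the CUT&RUN peaks, 65 were within 1 kb of a gene end and 40 were inside the gene.

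**Figure D1:**
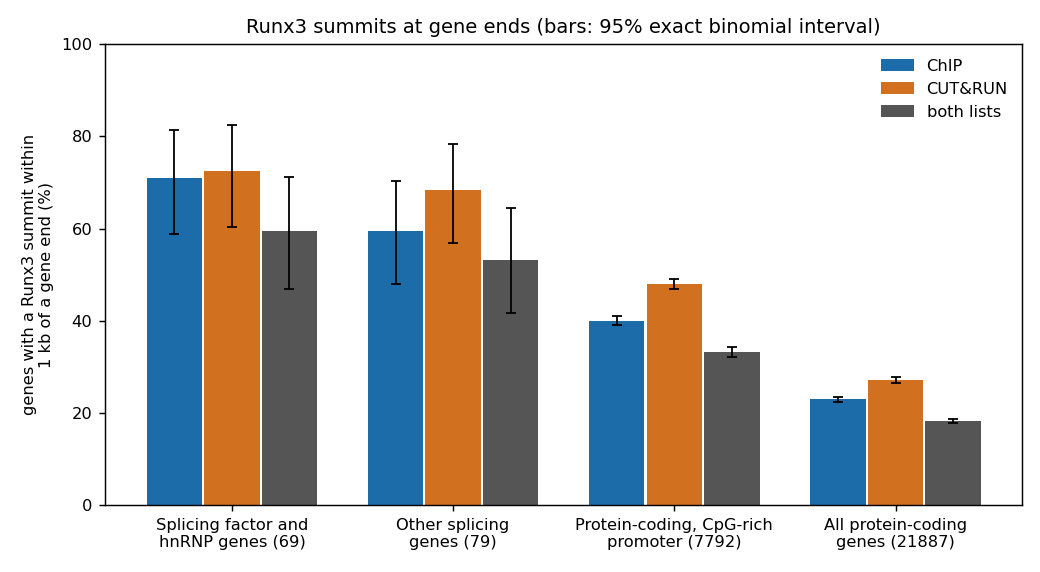
Bars give the percentage of genes with a Runx3 summit within 1 kb of a gene end in ChIP (blue), CUT&RUN (orange) and both lists (grey), and black lines the exact 95% binomial interval. The 69 splicing factor and hnRNP genes stood at 71.0%, 72.5% and 59.4%, the 79 other splicing genes at 59.5%, 68.4% and 53.2%, protein-coding genes with a CpG-rich promoter at 40.0%, 48.0% and 33.3%, and all protein-coding genes at 23.0%, 27.2% and 18.3%.

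Splicing factor and hnRNP genes have CpG-rich promoters more often than other genes do, and genes with such promoters carry more peaks in both lists. The RefSeq promoter table gave a start and a strand for 60 of the 69 genes. In 51 of the 60 (85.0%, interval 73.4 to 92.9%) the 250 bases before a start were CpG-rich (at least 0.5 of bases G or C and an observed over expected CpG ratio of at least 0.6), against 44.5% of 17492 protein-coding genes. Among these 51 genes, 37 had a ChIP summit at a gene end (72.5%, interval 58.3 to 84.1%), against 40.0% of all genes with a CpG-rich window. In CUT&RUN 39 did (76.5%, interval 62.5 to 87.2%), against 48.0%, and in both lists 31 did (60.8%, interval 46.1 to 74.2%), against 33.3%. All 3 intervals lie above the share of CpG-rich genes as a whole. Of the 9 genes with another kind of window, 6 had a ChIP summit (against 10.4% of such genes), 5 a CUT&RUN summit (against 12.2%) and 4 both (against 7.59%). Expression was not measured in this series, and its part in these counts was not tested.

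The edge peaks of these genes lay mainly at their starts. Within 1 kb of the 5′ gene end there was a ChIP summit in 40 of the 60 genes with a strand (66.7%, against 22.3% of all genes with a promoter entry) and a CUT&RUN summit in 43 (71.7%, against 26.8%); both were there in 33 (55.0%, against 18.0%). At the 3′ end, 6 of 60 had a summit in each list (10%, against 1.95% of all such genes in ChIP and 2.43% in CUT&RUN), and 5 in both (8.33%, against 1.30%). Measured to the nearest annotated start, 40 genes had a ChIP summit within 1 kb (66.7%, against 24.5%), 45 a CUT&RUN summit (75.0%, against 28.8%) and 34 both (56.7%, against 19.7%). The nearest ChIP summit lay at a median distance of 122 bp, against 101 bp over all genes with a summit there, and was upstream in 28 of 40 genes (70.0%, against 65.0%). For CUT&RUN the median distance was 77 bp, against 88 bp, and 37 of 45 summits were upstream (82.2%, against 74.4%). ChIP summits were within 100 bp of a start in 14 of the 40 genes (35.0%, against 50.0% of all genes with a summit there), and CUT&RUN summits in 26 of the 45 (57.8%, against 55.4%).

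**Figure D2:**
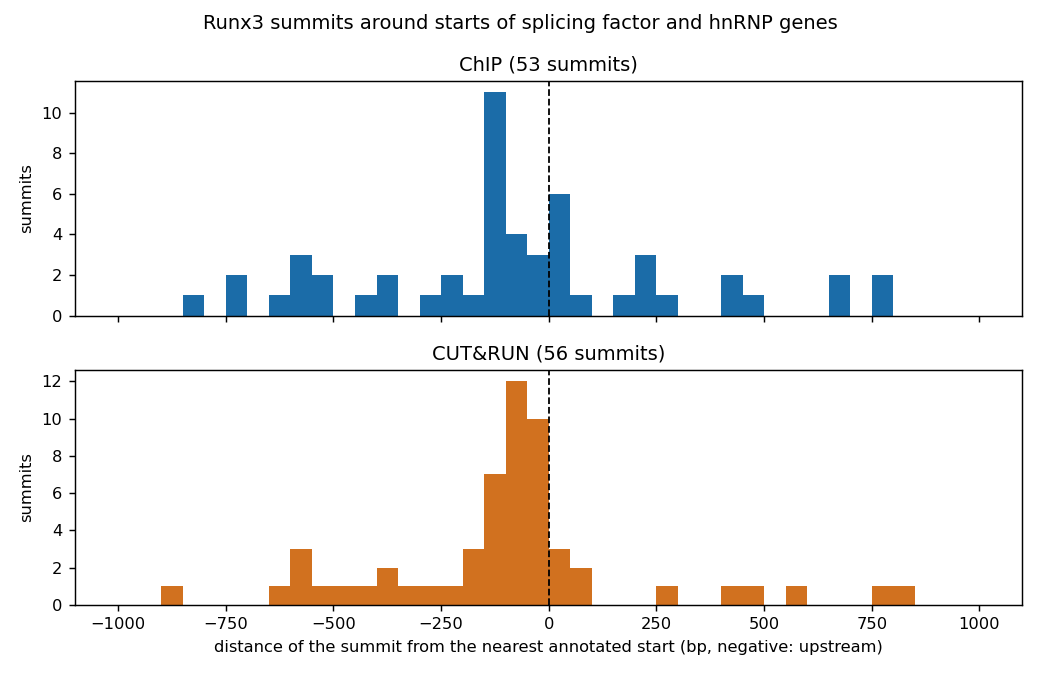
Histograms in 50 bp bins of the distance to the nearest annotated start, for ChIP (upper, blue) and CUT&RUN (lower, orange). They hold every summit of the splicing factor and hnRNP genes within 1 kb of an annotated start, also where it is not near a gene end. Upstream distances are negative and the dashed line marks the start. Most summits lie upstream, with the fullest ChIP bin between 100 and 150 bp before the start and the fullest CUT&RUN bins within 100 bp of it.

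The assays placed their summits close together. Of the 41 genes with an edge summit in both lists, 40 had a ChIP and a CUT&RUN edge peak that overlapped (97.6%, interval 87.1 to 99.9%), against 93.2% of all protein-coding genes with an edge summit in both lists. Taken over all genes, such a pair stood at 58.0% of the 69, against 17.1% of all protein-coding genes. At Srsf2, named because it is the exception, they did not overlap, with summits 324 bp apart. The median distance between the summits of the best edge peaks was 51 bp, with quartiles of 24 and 111 bp. At Snrpd3 the best ChIP peak was at the 3′ end and the best CUT&RUN peak at the 5′ end, 18757 bp apart, and at U2af1l4 they were likewise at different ends, 1238 bp apart. The best ChIP edge peak was shared with CUT&RUN in 40 of 49 genes (81.6%, interval 68.0 to 91.2%), against 73.1% of all protein-coding genes with an edge peak. That interval includes the background share. The best CUT&RUN edge peak was shared with ChIP in 40 of 50 genes (80.0%, interval 66.3 to 90.0%), against 61.6%, which lies below the interval.

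In height, these peaks were moderate. The median pileup of the best edge peak was 15 fragments in ChIP (range 8 to 38), against 12 for all protein-coding genes with an edge peak, and 28.5 in CUT&RUN (range 9 to 98), against 25. The median rank was 30.8% down the ChIP list, against 45.0%, and 39.3% down the CUT&RUN list, against 47.9%. In ranks, 7 of 49 best ChIP peaks (14.3%, against 9.22% of all best edge peaks) and 6 of 50 best CUT&RUN peaks (12.0%, against 7.06%) were in the top 10% of their list.

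**Figure D3:**
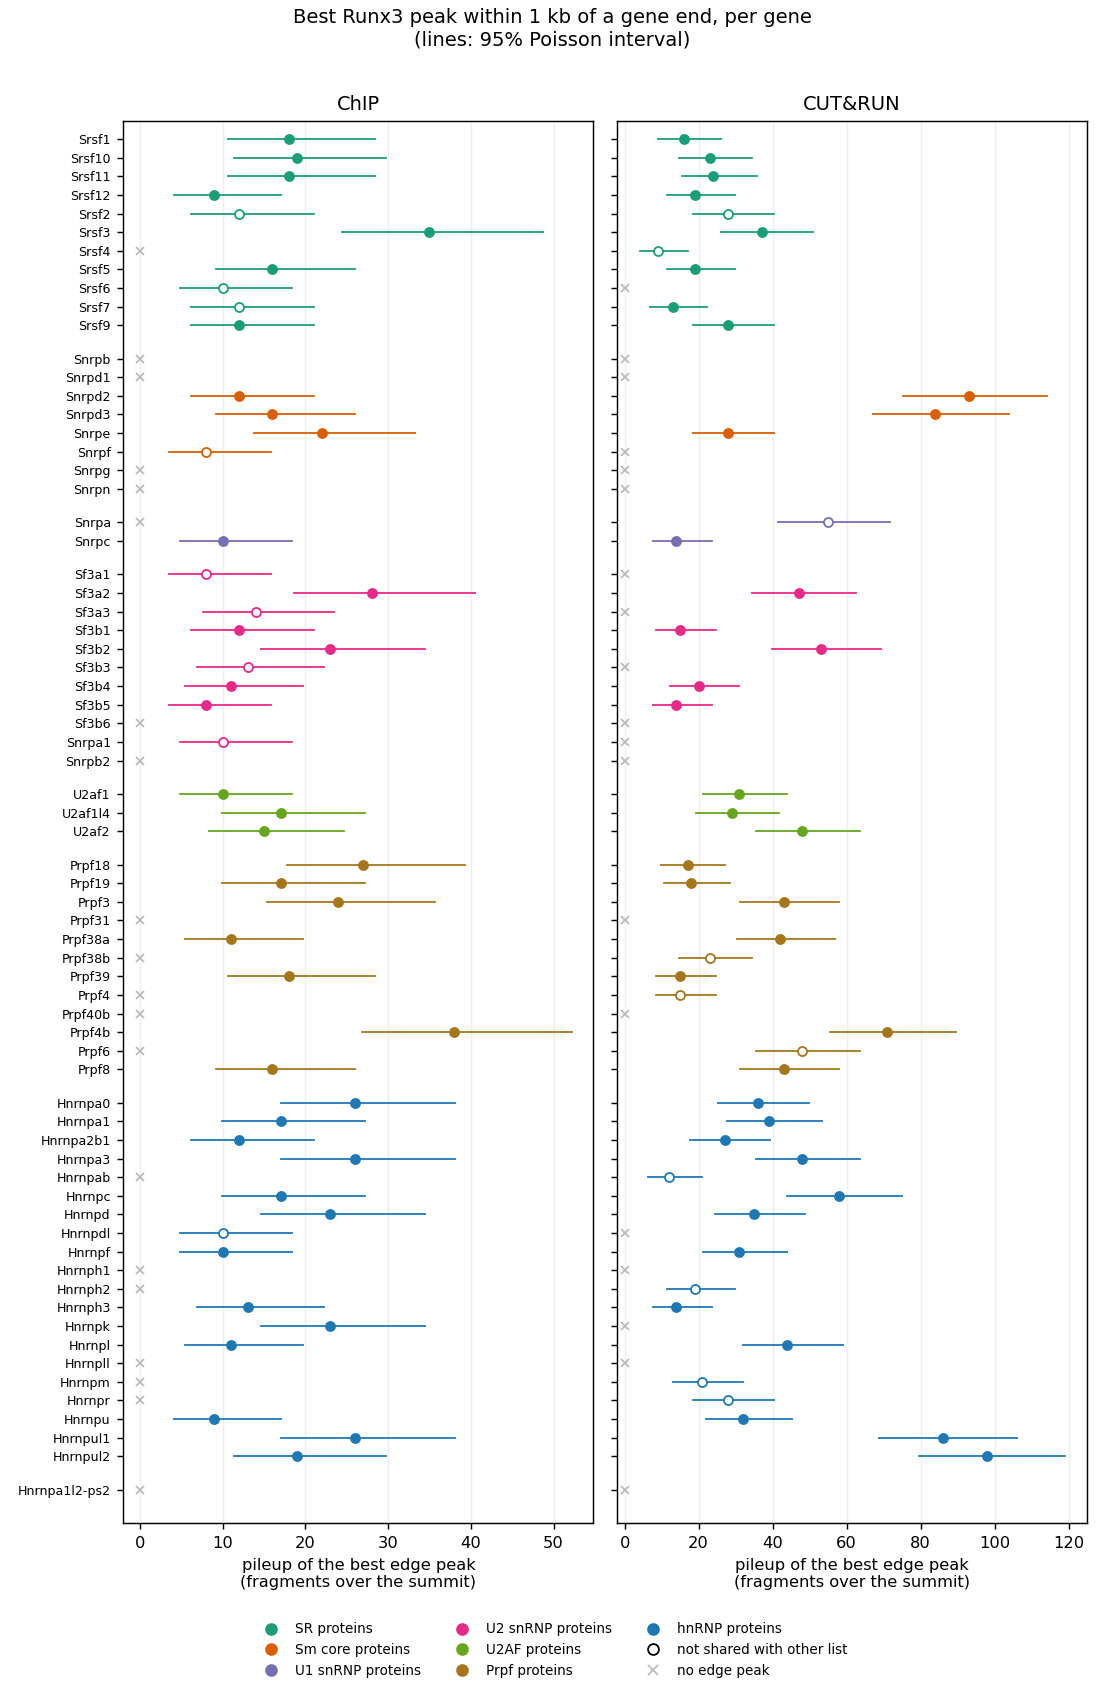
Pileup (fragments over the summit) of the best Runx3 peak within 1 kb of a gene end, by gene, in ChIP (left) and CUT&RUN (right), coloured by family, with 95% Poisson intervals as lines. Filled points overlap a peak of the other list, open points do not, and grey crosses at 0 mark genes with no edge peak; Prpf4b reaches 38 fragments in ChIP and Hnrnpul2 98 in CUT&RUN.

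The promoter windows below show where both assays put their summits and which letters lie under them. They are the 5 genes with the strongest joint ranks among the 16 that had the summits of both lists inside the 250 bases before 1 annotated start. Sf3b6 and Snrpb2 follow, chosen because they had no peak and at least 2 matches to the ETS letters below. The other 3 of the 5 genes with no peak and a promoter entry (Snrpn, Prpf40b and Hnrnpa1l2-ps2) had no such match. Sequences are from RefSeq (GRCm38.p6, mm10), written 5′ to 3′ on the gene's strand, and the last base is the one before the annotated start. Capitals mark matches on either strand to the RUNX letters TGNGGT (reverse complement ACCNCA, with TGTGGT included among them) or the letters CCGGAAG (reverse complement CTTCCGG) of an ETS site. A match is a description of letters and not evidence of a bound site.
Prpf3, chr3:95855754-95856003, minus strand: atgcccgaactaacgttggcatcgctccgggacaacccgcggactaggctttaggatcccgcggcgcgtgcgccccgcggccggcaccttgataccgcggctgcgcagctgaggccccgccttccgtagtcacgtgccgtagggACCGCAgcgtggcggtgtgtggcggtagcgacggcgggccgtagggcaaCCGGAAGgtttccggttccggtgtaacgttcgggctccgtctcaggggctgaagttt
Srsf3, chr17:29032410-29032659, plus strand: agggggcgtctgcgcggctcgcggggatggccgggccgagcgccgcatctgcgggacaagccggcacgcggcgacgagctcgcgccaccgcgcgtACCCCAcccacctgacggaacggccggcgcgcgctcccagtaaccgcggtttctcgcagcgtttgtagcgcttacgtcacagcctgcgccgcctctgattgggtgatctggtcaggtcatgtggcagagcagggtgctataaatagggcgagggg
Hnrnpa0, chr13:58128557-58128806, minus strand: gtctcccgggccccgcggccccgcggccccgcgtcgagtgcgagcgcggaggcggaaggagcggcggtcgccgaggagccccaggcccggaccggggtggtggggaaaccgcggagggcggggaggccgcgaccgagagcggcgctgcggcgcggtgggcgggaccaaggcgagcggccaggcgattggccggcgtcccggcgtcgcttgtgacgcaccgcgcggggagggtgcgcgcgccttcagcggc
Prpf8, chr11:75486527-75486776, plus strand: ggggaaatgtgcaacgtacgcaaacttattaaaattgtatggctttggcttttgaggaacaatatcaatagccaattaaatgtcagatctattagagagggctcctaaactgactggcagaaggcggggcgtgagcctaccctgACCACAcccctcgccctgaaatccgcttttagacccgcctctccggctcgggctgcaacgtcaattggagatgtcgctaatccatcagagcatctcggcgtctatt
Hnrnpd, chr5:99978939-99979188, minus strand: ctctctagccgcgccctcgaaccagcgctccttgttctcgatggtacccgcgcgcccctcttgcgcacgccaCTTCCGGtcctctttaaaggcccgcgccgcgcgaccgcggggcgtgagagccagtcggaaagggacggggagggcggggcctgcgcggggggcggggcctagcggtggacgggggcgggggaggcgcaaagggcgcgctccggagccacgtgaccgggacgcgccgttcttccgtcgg
Sf3b6, chr12:4817358-4817607, plus strand: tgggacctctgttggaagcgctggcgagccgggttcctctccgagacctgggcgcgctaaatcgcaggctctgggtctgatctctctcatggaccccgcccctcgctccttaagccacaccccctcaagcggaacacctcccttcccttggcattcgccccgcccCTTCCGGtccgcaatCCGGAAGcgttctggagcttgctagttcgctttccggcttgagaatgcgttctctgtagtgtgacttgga
Snrpb2, chr2:143062819-143063068, plus strand: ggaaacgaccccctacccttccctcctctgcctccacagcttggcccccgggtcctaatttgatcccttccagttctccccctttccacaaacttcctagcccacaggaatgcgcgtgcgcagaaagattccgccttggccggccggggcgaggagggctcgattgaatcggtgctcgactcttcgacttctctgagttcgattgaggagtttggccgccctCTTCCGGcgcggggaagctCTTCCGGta

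In Prpf8, which encodes the scaffold protein at the heart of the U5 snRNP, the ChIP summit lay 123 bases before the start and the CUT&RUN summit 96 bases before it, and the ACCACA match began 106 bases before it, between them. The match in Prpf3, which encodes a protein of the U4 and U6 snRNPs, began 106 bases before the start shown, between a ChIP summit at 90 and a CUT&RUN summit at 139. In Srsf3, an SR protein gene, the summits lay 100 and 109 bases before the start and the match to TGNGGT began at 155. Hnrnpd, whose product binds AU-rich RNA elements, had no RUNX letters in the window. Its ETS letters began at 178, next to the CUT&RUN summit at 177, and its ChIP summit was at 113. The window of Hnrnpa0, an A/B type hnRNP gene, held neither set of letters, with summits at 140 in ChIP and 45 in CUT&RUN. The windows of Sf3b6 and Snrpb2, both of the U2 snRNP, each held 2 matches to the ETS letters, for which they were chosen, and none to the RUNX letters.

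The RUNX letters TGNGGT were less frequent in these promoters than over all genes with an entry, and the ETS letters were more frequent. TGNGGT stood in the window of 15 of 60 genes (25.0%, interval 14.7 to 37.9%), against 41.8% of all genes with an entry. TGTGGT stood in 5 (8.33%, interval 2.76 to 18.4%), against 14.3%, which lies within the interval. CCGGAAG stood in 18 (30.0%, interval 18.8 to 43.2%), against 10.2%. These windows also differ in composition: the median share of G and C was 59.6%, against 55.6% over all genes, with a median of 19 CpG pairs, against 10. In CpG-rich windows alone, TGNGGT stood in 12 of 51 genes (23.5%, interval 12.8 to 37.5%), against 36.0% of all CpG-rich genes, which lies within the interval. CCGGAAG stood in 16 of them (31.4%, interval 19.1 to 45.9%), against 17.0%, which lies below the interval. In CpG-rich windows that held a summit of either list, CCGGAAG stood in 10 of 33 genes (30.3%, interval 15.6 to 48.7%), against 22.0%, which lies within the interval. In windows of any composition that held a ChIP summit, CCGGAAG stood in 10 of 22 genes (45.5%, interval 24.4 to 67.8%), against 22.5%. For windows with a CUT&RUN summit it was 10 of 31 (32.3%, interval 16.7 to 51.4%), against 19.9%. For windows with a summit of either list it was 13 of 37 (35.1%, interval 20.2 to 52.5%), against 20.5%. Both of these last background shares lie within their intervals. Of the 16 genes with both summits in 1 window, 6 had TGNGGT (37.5%, against 53.9% of all such genes), 7 had CCGGAAG (43.8%, against 22.3%) and 6 had neither. The intervals of these 16 genes, 15.2 to 64.6% for TGNGGT and 19.8 to 70.1% for CCGGAAG, include the shares of all such genes. How far composition sets these shares was not tested.

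Every SR protein gene had an edge summit in at least 1 list. A ChIP edge summit was found in 10 of the 11 (against 23.0% of all protein-coding genes), a CUT&RUN edge summit in 10 (against 27.2%), and both in 9 (against 18.3%). Srsf3, whose protein acts in exon recognition and mRNA export, had the strongest ChIP peak among them at 35 fragments (95% Poisson interval 24.4 to 48.7), rank 392. Its CUT&RUN peak had 37 fragments (interval 26.1 to 51.0) and rank 3980, and the summits were 9 bp apart. Srsf1, a long studied regulator of alternative splicing, had 18 fragments in ChIP and 16 in CUT&RUN. Both of its summits were inside the gene span, 858 and 817 bp from the 5′ end, and lay 16 and 57 bp before an annotated start there. Srsf5, Srsf7, Srsf10 and Srsf11 had 12 to 19 ChIP fragments and 13 to 24 CUT&RUN fragments at their best edge peaks, which for Srsf10 were at the 3′ end. Srsf4 had a CUT&RUN edge peak alone, of 9 fragments at rank 15725, near the bottom of that list. Srsf6 had ChIP edge peaks alone, the best of 10 fragments.

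In 3 SR protein genes the best ranked ChIP peak of the window was not at a gene end. Srsf12 had summits 17433 and 18089 bp after its annotated start, inside the gene. The farther of these had 23 fragments in ChIP and 25 in CUT&RUN, against 9 and 19 for its edge peak. Near Srsf9, a ChIP peak 7340 bp beyond the gene end had 31 fragments (rank 614), against 12 at the start. CUT&RUN had the other order at Srsf9, with 12 fragments at the far peak and 28 at the start. Near Srsf2, a peak 6346 bp from the nearest gene end had 18 ChIP fragments, against 12 at the edge, and the CUT&RUN peak there had 50, against 28.

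Among the Sm core genes, which encode the ring proteins shared by spliceosomal snRNPs, 4 of 8 had a ChIP edge summit (interval 15.7 to 84.3%, against 23.0% of all protein-coding genes), and 3 had a CUT&RUN edge summit and both (interval 8.52 to 75.5%, against 27.2% and 18.3%). With 8 genes, all of these intervals include the background share. Snrpd2 had the best ranked CUT&RUN edge peak of all 69 genes, with 93 fragments (interval 75.1 to 114) at rank 573. Its ChIP peak had 12 fragments and rank 6529. The summits were 36 bp apart, and an end of Qpctl is within 1 kb. At Snrpd3 both ends of the gene carried peaks in both lists. The 5′ peak had 15 fragments in ChIP and 84 in CUT&RUN, and the 3′ peak had 16 in ChIP and 72 in CUT&RUN, and the intervals of the ends overlapped within each list. An end of Gucd1 is within 1 kb of a best summit of Snrpd3, and which end of Snrpd3 it adjoins was not recorded. Snrpe had 22 ChIP fragments and 28 CUT&RUN fragments, with summits 29 bp apart at its start.

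The other Sm genes had weak or distant peaks or none. Snrpf had a ChIP edge peak of 8 fragments, at its 3′ end, and no CUT&RUN edge peak. Snrpg had no edge peak, but a CUT&RUN peak of 74 fragments (rank 897) lay 5998 bp upstream, where ChIP had 9 fragments at a summit 3 bp away. Snrpd1 had a peak in both lists outside the gene, 7682 bp away with 14 fragments in ChIP and 7650 bp away with 46 in CUT&RUN. Snrpb and its close relative Snrpn, which is active mainly in neurons, had no peak within 10 kb in either list.

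Of the U1 snRNP genes named by the rule, Snrpc had an edge peak in both lists and Snrpa in CUT&RUN alone. The U1 snRNP pairs with the start of the intron. At Snrpc the ChIP peak had 10 fragments and the CUT&RUN peak 14, with summits 13 bp apart at the 5′ end. The Snrpa peak, with 55 fragments (interval 41.4 to 71.6) at rank 2064, had the best rank of the 9 edge peaks that CUT&RUN alone placed. Its summit was 11 bp inside the gene's 5′ end, and the end of BC024978 is within 1 kb.

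The U2 snRNP binds the branch point, and SF3A and SF3B are its large protein complexes. An edge summit was present in ChIP at 9 of the 11 genes (interval 48.2 to 97.7%, against 23.0% of all protein-coding genes), in CUT&RUN at 5 (interval 16.7 to 76.6%, against 27.2%) and in both at 5 (against 18.3%). The CUT&RUN interval includes its background share, and the intervals of the assays overlap. Sf3b2 had 23 fragments in ChIP (rank 1470) and 53 in CUT&RUN (rank 1960), with summits 86 bp apart. Sf3a2 had 28 fragments in ChIP (rank 799) and 47 in CUT&RUN (rank 3059), with summits 333 bp apart and the end of Plekhj1 within 1 kb. Sf3b1, the subunit that contacts the branch site, had 12 fragments in ChIP and 15 in CUT&RUN. Sf3b4 and Sf3b5 had 11 and 8 fragments in ChIP and 20 and 14 in CUT&RUN. The 4 genes with a ChIP edge peak alone were Sf3a1 (8 fragments), Sf3a3 (14), Sf3b3 (13) and Snrpa1 (10), and none of these overlapped a CUT&RUN peak. The U2 genes with no peak in the window were Sf3b6 and Snrpb2.

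All 3 U2AF genes had edge summits in both lists, against 18.3% of all protein-coding genes, though 3 genes are too few to give a firm share. U2af2, which encodes the subunit that binds the polypyrimidine tract, had 15 fragments in ChIP and 48 in CUT&RUN. Its summits were 100 bp apart, and an end of Ccdc106 is within 1 kb. U2af1, for the subunit that reads the end of the intron, had 10 and 31 fragments. Its paralogue U2af1l4 had 17 fragments in ChIP and 23 in CUT&RUN just beyond its 3′ end, at 18 and 46 bp. Inside the gene, 751 and 804 bp from the 5′ end, it had 8 in ChIP and 29 in CUT&RUN. The U2af1l4 gene is 2025 bp long and lies within 1 kb of Psenen and Igflr1.

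Among the Prpf genes, for precursor RNA processing factors, 8 of 13 had an edge summit in ChIP (against 23.0% of all protein-coding genes), 11 in CUT&RUN (against 27.2%) and 8 in both (against 18.3%). Prpf4b, a kinase of spliceosomal proteins, had the lowest sum of ranks of all 69 genes and their best ranked ChIP edge peak. Its ChIP summit had 38 fragments (interval 26.9 to 52.2) at rank 260, and its CUT&RUN summit 71 (interval 55.5 to 89.6) at rank 1409. Both lay before the 5′ end of the gene, at 294 and 389 bp. Prpf3 had 24 fragments in ChIP and 43 in CUT&RUN, and Prpf8 16 and 43.

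The lists ranked Prpf18 very differently. Prpf18, a factor of the last catalytic step, had 27 in ChIP (rank 947) and 17 in CUT&RUN (rank 11081). Prpf19, a ubiquitin ligase of the spliceosome, had 17 in ChIP and 18 in CUT&RUN. CUT&RUN alone had an edge peak at Prpf6 (48 fragments, rank 2676), Prpf38b (23 fragments) and Prpf4 (15 fragments). Prpf38a and Prpf39 had 11 and 18 fragments in ChIP and 42 and 15 in CUT&RUN. Prpf31 had peaks of both lists beyond the gene, the higher of 10 fragments at 2158 bp in ChIP and of 38 at 2316 bp in CUT&RUN. Prpf40b had no peak.

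**Figure D4:**
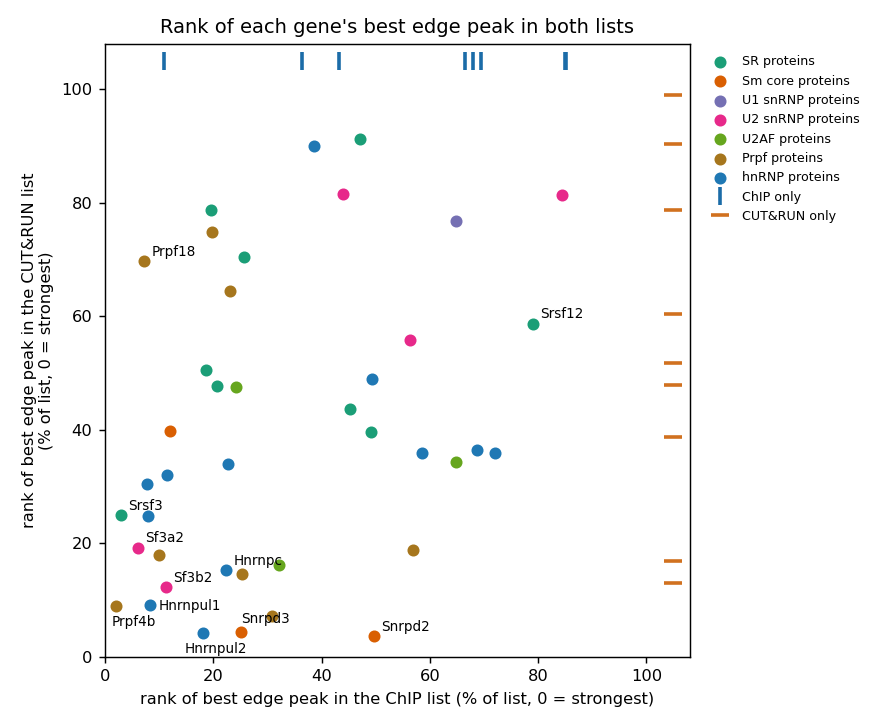
Rank of the best edge peak in the ChIP list (horizontal, as % of the list with 0 strongest) against that in the CUT&RUN list (vertical, same scale) for the 41 genes with edge peaks in both lists, coloured by family; ticks at the top mark the 8 genes with a ChIP edge peak alone and dashes at the right the 9 with a CUT&RUN edge peak alone. Prpf4b sits at 1.97% and 8.87%, while Prpf18 sits at 7.19% and 69.7% and Snrpd2 at 49.6% and 3.61%.

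The hnRNP genes form the biggest family, and 14 of 20 had an edge summit in ChIP (against 23.0% of all protein-coding genes), 16 in CUT&RUN (against 27.2%) and 12 in both (against 18.3%). Hnrnpul1 and Hnrnpul2, which encode relatives of the nuclear scaffold protein Hnrnpu, ranked highest. Hnrnpul1 had 26 fragments in ChIP (interval 17.0 to 38.1, rank 1085) and 86 in CUT&RUN (interval 68.8 to 106, rank 1458). Hnrnpul2 had 19 in ChIP (rank 2386) and 98 in CUT&RUN (interval 79.6 to 119, rank 655). Both have another gene's end within 1 kb of a best summit, Axl at Hnrnpul1 and Ttc9c at Hnrnpul2.

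The A/B type and C type genes followed. Hnrnpa3 had 26 fragments in ChIP and 48 in CUT&RUN, Hnrnpa0 26 and 36, and Hnrnpa1, a repressor of many exons, 17 and 39. An end of Cbx5 is within 1 kb of a best summit of Hnrnpa1. Hnrnpc, whose protein binds uridine tracts, had 17 and 58, with summits 10 bp apart and the end of Rpgrip1 within 1 kb. Hnrnpa2b1 had 12 and 27, with the end of Cbx3 within 1 kb. Hnrnpd had 23 and 35, with an end of 4930524J08Rik within 1 kb, and Hnrnph3 13 and 14, with an end of Pbld2 within 1 kb.

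Other hnRNP genes had an edge peak in 1 list alone. ChIP alone marked Hnrnpk (23 fragments, rank 1429), which binds cytidine-rich sequences, and Hnrnpdl (10 fragments). The Hnrnpk peak overlapped a CUT&RUN peak of 21 fragments whose summit was 1171 bp from the gene end, just past the limit, and 55 bp before an annotated start inside the gene. CUT&RUN alone marked Hnrnpr (28 fragments), Hnrnpm (21), Hnrnph2 (19) and Hnrnpab (12). Hnrnpab and Hnrnph2 had no ChIP peak within 10 kb, whereas Hnrnpr and Hnrnpm had a ChIP peak of 9 fragments inside the gene.

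At least 3 peaks of 1 list within the span plus 10 kb were found for 10 of the 69 genes (14.5%, interval 7.17 to 25.0%), against 11.1% of all protein-coding genes, which lies within the interval. Of these, 7 are hnRNP genes (7 of 20, interval 15.4 to 59.2%). The 10 genes were Hnrnpa1, Hnrnpf, Hnrnph1, Hnrnpl, Hnrnpu, Hnrnpul1, Hnrnpul2, Srsf10, Srsf12 and Snrpd3. Hnrnpl, a regulator of Ptprc exon use in T cells, had 5 ChIP and 6 CUT&RUN peaks. Its ChIP peaks had 8 to 17 fragments and its CUT&RUN peaks 22 to 44. Overlapping peaks of both lists lay before the 5′ end, near 2 and 3 kb into the gene, and 922 and 984 bp before the 3′ end. The summits near 2 kb were 232 bp (ChIP) and 128 bp (CUT&RUN) before an annotated start inside the gene. Those near 3 kb were 658 and 562 bp after that start. CUT&RUN alone had a peak of 40 fragments 8437 bp upstream of the gene. The related gene Hnrnpll, whose protein drives exon skipping of Ptprc in activated T cells, had no peak in either list.

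Hnrnpf and Hnrnph1 encode related proteins that bind guanine tracts. Hnrnpf had edge peaks of 10 fragments in ChIP and 31 in CUT&RUN, and higher shared peaks inside the gene, of 14 and 21 fragments in ChIP and 36 and 39 in CUT&RUN. The inner peaks ranked above the edge peak in ChIP (4882 and 1966, against 9063) and below it in CUT&RUN (7263 and 6380, against 5787). These inner summits lay within 1 kb of other annotated starts of Hnrnpf. Hnrnph1 had no summit within 1 kb of a gene end. Inside the gene, a ChIP peak of 9 fragments and a CUT&RUN peak of 56 (rank 2097) overlapped, with summits 146 and 118 bp before an annotated start. Another ChIP peak inside the gene, of 15 fragments (rank 3821) and 242 bp after an annotated start, overlapped no CUT&RUN peak. Upstream, 3779 bp from the gene, ChIP had 30 fragments (rank 647), and CUT&RUN had 14 at an overlapping peak.

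Hnrnpul1 had shared peaks at its 5′ end, 989 and 1035 bp into the gene and beyond its 3′ end. In ChIP they had 26, 24 and 24 fragments, and in CUT&RUN 86, 54 and 74. The intervals of the 3 peaks overlapped within each list. Hnrnpu had shared peaks 301 and 322 bp before its 3′ end (9 fragments in ChIP, 32 in CUT&RUN), in its body (10 and 28) and beyond its 3′ end (14 and 26). At the start of Hnrnpu only CUT&RUN had a peak, of 16 fragments, 46 bp before an annotated start.

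**Figure D5:**
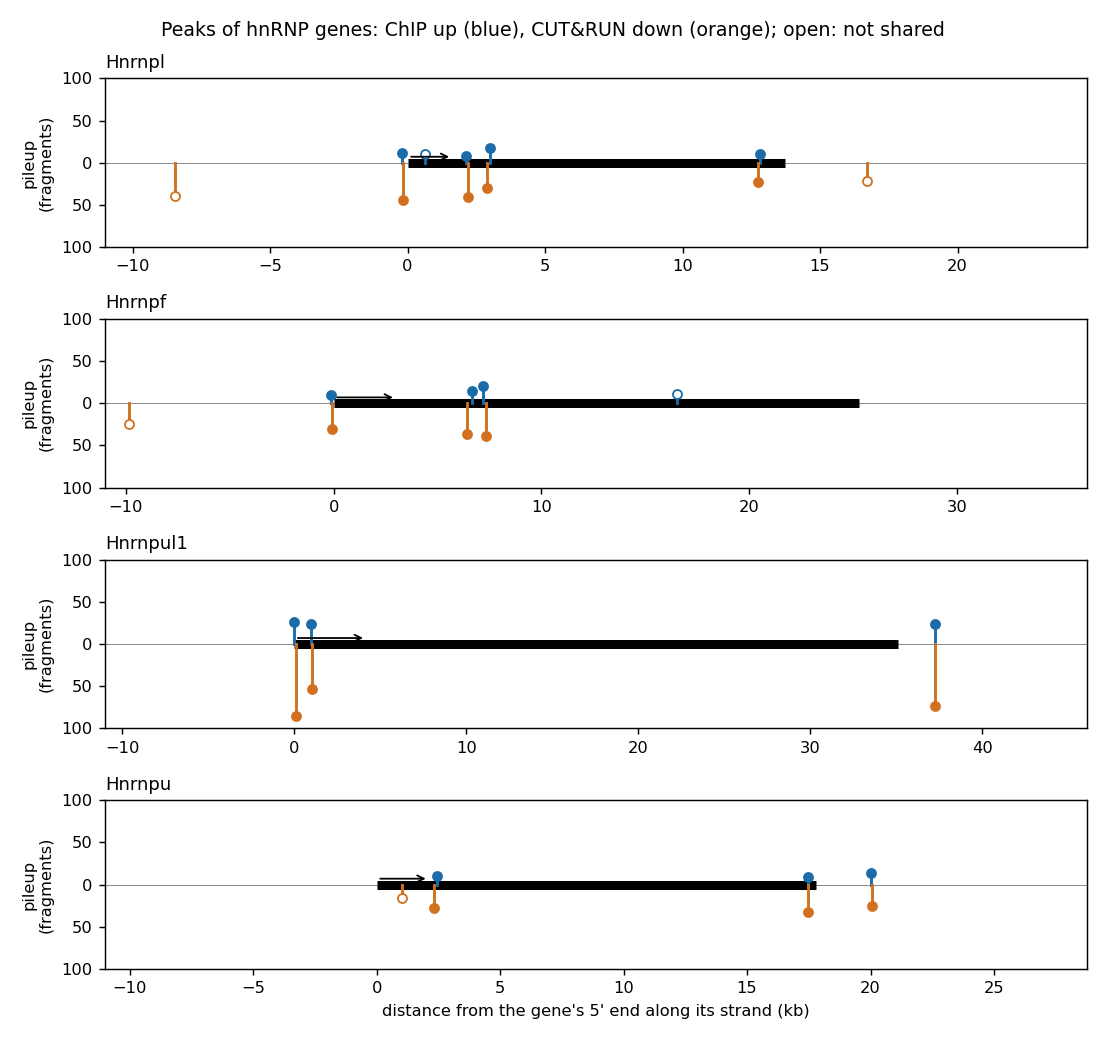
Summits along Hnrnpl, Hnrnpf, Hnrnpul1 and Hnrnpu, with the distance from the gene's 5′ end in kb (negative upstream) on the horizontal axis, the gene as a black bar and an arrow for its strand. Blue stems upward give ChIP pileup and orange stems downward CUT&RUN pileup in fragments, filled where the peaks overlap; Hnrnpl has 5 ChIP and 6 CUT&RUN summits, and the tallest stem is the CUT&RUN peak of 86 fragments at the 5′ end of Hnrnpul1.

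The limit of 1 kb divided close cases. The ChIP summit just inside it was 989 bp from the end of Hnrnpul1, and the one just outside 1017 bp from the end of Hnrnpa2b1. In CUT&RUN the summit just inside was at Hnrnpl (984 bp) and the one just outside at Hnrnpu (1030 bp). Hnrnpul1, Hnrnpa2b1 and Hnrnpl had other edge summits, and Hnrnpu had another at its 3′ end.

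No peak at all within the span plus 10 kb was found for 7 genes: Snrpb, Snrpn, Sf3b6, Snrpb2, Hnrnpll, Prpf40b and Hnrnpa1l2-ps2. Another 4 genes, Snrpd1, Snrpg, Hnrnph1 and Prpf31, had peaks in the window and none within 1 kb of an end. A peak below the callers' thresholds would not be seen in these lists.

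Many of these genes lie beside others. Of the 69, 40 (58.0%) have another protein-coding gene within 1 kb, against 31.6% of all protein-coding genes. Of the 58 genes with an edge peak, 23 had a best summit that was also within 1 kb of another protein-coding gene's end, and at these a peak cannot be given to 1 gene. Not all of these other genes are named above. The same count over all protein-coding genes with an edge peak was not made, so whether 23 of 58 is unusual was not tested. Among the 29 genes with no such neighbour, 20 had a ChIP edge summit (69.0%, against 17.5% of protein-coding genes with no such neighbour), 20 a CUT&RUN edge summit (69.0%, against 20.4%) and 17 both (58.6%, against 13.8%).

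A chosen list of 79 other splicing genes outside the naming rule was also covered above the background. A ChIP edge summit was present in 47 (59.5%, interval 47.9 to 70.4%, against 23.0% of all protein-coding genes). A CUT&RUN edge summit was present in 54 (68.4%, interval 56.9 to 78.4%, against 27.2%) and both in 42 (53.2%, interval 41.6 to 64.5%, against 18.3%). These intervals overlap those of the 69 genes. The strongest joint ranks belonged to Snrnp70, for a U1 snRNP protein, with 42 ChIP fragments (rank 191) and 99 CUT&RUN fragments (rank 547), and to Isy1, with 23 and 111 fragments. Ptbp1, a polypyrimidine tract binding repressor of exons, had 37 and 68, Puf60 26 and 43, and Snrnp200, a helicase of the U5 snRNP, 18 and 56. By group, both lists marked 4 of 7 Snrnp genes, 6 of 7 LSm genes, 6 of 10 splicing helicase genes, 9 of 15 splice site and branch point factor genes, 6 of 14 genes of SR kinases and SR-related proteins, 9 of 21 regulatory RNA-binding protein genes and 2 of 5 exon junction complex genes. Over all protein-coding genes the share with both was 18.3%. With 5 to 21 genes per group, these counts are rough.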

How the data were processed

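Peak lists of Runx3 ChIP and CUT&RUN were used, 1 library per assay. Per the submitters' processing notes, the authors aligned reads with Bowtie to mm10; its version and settings are not given in the sources used here. Each library was called on its own from paired-end fragments with MACS2 2.1.1.20160309, keeping 1 fragment per position, per the file headers. ChIP was called at q of 0.05 against whole cell extract, and CUT&RUN at q of 1e-05 with no control, on an alignment named for nucleosome-free fragments. The deposited lists give the pileup (a coverage signal), p and q values as −log10, and a ratio of fold enrichment, as written by the authors' caller. Heights were used only within a list, since depth, duplicate loss, mean fragment size (115 bp in ChIP, 63 bp in CUT&RUN), control and threshold differ. The list totals are in the report.

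From these files, Python 3.11.15 with pandas 2.3.3, numpy 2.4.6 and scipy 1.17.1 counted summits within 1 kb of either gene end and within the span plus 10 kb, on RefSeq gene spans. An overlap of at least 1 bp made peaks shared. The code that places summits at gene ends and in windows and marks overlaps was tested on simulated data. The code for the confidence intervals was not part of that check. No test was made, since there are no replicates. RefSeq promoter entries (250 bases before the start; the bases after it were not used) gave strand for 60 of 69 genes. The members and lists were chosen with earlier results of these data known.

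Genes named were the 10 with the lowest sum of percent ranks, the best ranked per list and family, those with an edge peak in 1 list alone, those with no peak, those with at least 3 peaks, and those nearest the 1 kb limit. Other members were named by their best edge peaks to account for the rest; 1 member is counted but not reported here by itself. Printed promoters were chosen after their summits and letters were seen. Alternatives are given in the closing section.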

Additional observations from a re-analysis of the deposited data

How the results depend on the processing

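Of 51 recomputed shares under 11 settings, 43 kept within 1.5 times the reported percentage and 8 moved further, and in 50 the share of splicing factor and hnRNP genes stayed above the background share; the exception was the shared best ChIP edge peak in the stronger part of each list (60.0%, against 62.9%). With the stronger 6583 ChIP and 7945 CUT&RUN peaks alone, edge summits fell to 46.4% of the 69 genes in CUT&RUN and 33.3% in both lists (background 14.3% and 8.33%), and window summits in both lists to 46.4% (background 19.7%). With the gene span alone, the shares were 52.2% in ChIP, 40.6% in CUT&RUN and 30.4% in both lists (background 22.4%, 24.1% and 16.2%). With summits required to lie within 50 bp, 44.9% of best ChIP and 40.0% of best CUT&RUN edge peaks were shared (background 39.6% and 32.3%). These 3 settings hold fewer peaks, less sequence or a narrower match by construction. Taking ChIP peaks at q of 1e-05 or less, as in CUT&RUN, left an edge summit in 55.1% of the 69 genes in ChIP (background 15.3%). Some settings could not move a value: the q limit leaves the 2 CUT&RUN shares of edge and window summits as they were, and removing high-background regions changed none of the 8 shares, with every count as reported. No paired analysis was possible because each assay has 1 library, and no result comes from a test. Leaving out a replicate was likewise not possible. Without a control for CUT&RUN, with the normal serum library not analysed here, and with 80.3% of ChIP fragments removed as duplicates, a missing peak is not evidence of absence.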

Other observations

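None of the 5 annotated pseudogenes with the same prefixes (Snrpert, Snrp1c-ps1, Snrp1c-ps2, Srsf3-ps and Hnrnpa1l2-ps) had a summit within its span plus 10 kb in ChIP or in CUT&RUN. With 0 of 5 the exact 95% interval reaches 52.2%, which includes the 40.2% and 45.1% of protein-coding genes with such a summit in ChIP and CUT&RUN. Hnrnpa1l2-ps2, which the table calls protein-coding, had none either. Reads from such copies can align to more than 1 place, and how the authors' alignment treated them is not given in the sources used here.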
